A study of Mus musculus with 12 samples.

Results

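The heterogeneous nuclear ribonucleoproteins (hnRNPs) and the serine/arginine-rich (SR) proteins bind nascent transcripts and help to decide which exons are joined. SR proteins carry RNA recognition motifs and a tail of arginine and serine repeats, and often promote the use of an exon, while many hnRNPs coat introns or exons and favour skipping. HuR, the product of Elavl1, also binds RNA, at U-rich stretches and AU-rich elements. Acinar cells make up most of the pancreas and transcribe very large amounts of spliced secretory messages.

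The genes described here were array rows that the platform annotation gives exactly 1 gene symbol beginning with Hnrnp or Srsf. Predicted pseudogenes and 1 further hnRNP gene were left out by the rule, so the set is not the whole family. This rule found 25 genes of the 30142 tested, 15 hnRNP genes and 10 SR genes, each with 1 row. A further 5 rows carried a family symbol together with another symbol and were not used. This leaves out Hnrnpa1, Hnrnpr, Hnrnpdl and Hnrnpll, and for Hnrnpa3 the row whose identifier names chromosome 2, where RefSeq places the gene. The row used for Hnrnpa3 has an identifier of chromosome 3, so its values may come from a copy of the gene and are uncertain.

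The samples were pancreas tissue of mice aged 6 months, 1 array per sample. There were 6 control samples, with the genotype Pdx1/Cre, and 6 samples called HuR here, with the genotype Pdx1/Cre + Traffic-HuR. All 12 samples therefore carried Pdx1/Cre, a recombinase driven by a promoter active in pancreatic epithelium, and only the HuR samples carried Traffic-HuR. Immune, fat and connective tissue cells in the same tissue piece are not a target of that promoter. The labels do not say whether each sample was a separate mouse, so the p-values measure the spread between these samples. In bulk tissue, fewer cells of a type and less RNA per cell cannot be told apart.

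Values are log2 expression levels as deposited, an error is the SD over the 6 samples of a group, and a difference is HuR minus control. The number of arrays limits the precision. Correlations between arrays were 0.971 to 0.996 over genes, and HuR replicate 2 had the lowest mean correlation with the others, at 0.981. Elavl1 ran from 5.83 to 6.12 with a median of 6.02 in the controls, and from 6.05 to 6.46 with a median of 6.21 in the HuR samples. Its difference was 0.24 (SE 0.074), with 5 of 6 HuR samples above every control. The permutation p (exact, two-sided) was 0.0108, and limma gave an unadjusted p of 0.00758 and an adjusted p of 0.824 over all genes. Acinar marker genes had the top value of the scale on every array in 6 of 11 cases, and the acinar mean ran from 14.69 to 15.29 over the 12 arrays. Of the 25 splicing factor genes, 24 exceeded the median of all rows, 4.52, and none held the same value on 3 or more arrays. The exception was Srsf12, whose levels of 3.68 to 3.86 lay near the median of 3.74 of the background rows, so its values say little about the message.

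The upstream regions of 4 genes are printed because 3 of them belong to the genes with the smallest p-values among those with a higher mean in HuR samples, and the fourth to Hnrnpl, the gene with the lowest difference. Each holds the 250 bases before a transcript start, taken from RefSeq on build GRCm38.p6 and written 5′ to 3′ on the gene's strand, and capitals mark matches to the motifs listed with the promoter results. They lie at chr6:51469895-51470144 on the minus strand, chr1:178337816-178338065 on the minus strand, chr4:135855821-135856070 on the plus strand and chr7:28810640-28810889 on the plus strand.
Hnrnpa2b1: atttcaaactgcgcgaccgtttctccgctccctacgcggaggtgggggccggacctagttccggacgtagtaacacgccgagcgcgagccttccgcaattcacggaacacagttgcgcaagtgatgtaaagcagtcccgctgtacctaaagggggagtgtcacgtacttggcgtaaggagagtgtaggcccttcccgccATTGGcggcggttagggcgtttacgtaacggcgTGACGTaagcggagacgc
Hnrnpu: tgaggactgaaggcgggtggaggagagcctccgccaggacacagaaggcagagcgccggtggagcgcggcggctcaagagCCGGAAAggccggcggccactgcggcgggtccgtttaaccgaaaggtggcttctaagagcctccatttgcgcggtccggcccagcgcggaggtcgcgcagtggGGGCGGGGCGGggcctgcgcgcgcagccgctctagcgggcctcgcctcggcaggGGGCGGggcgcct
Srsf10: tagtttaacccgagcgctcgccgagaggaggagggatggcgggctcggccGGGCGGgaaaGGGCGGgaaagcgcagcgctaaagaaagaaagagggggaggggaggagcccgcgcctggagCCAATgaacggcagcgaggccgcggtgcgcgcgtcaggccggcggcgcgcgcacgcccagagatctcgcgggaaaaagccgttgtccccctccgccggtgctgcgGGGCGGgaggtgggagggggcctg
Hnrnpl: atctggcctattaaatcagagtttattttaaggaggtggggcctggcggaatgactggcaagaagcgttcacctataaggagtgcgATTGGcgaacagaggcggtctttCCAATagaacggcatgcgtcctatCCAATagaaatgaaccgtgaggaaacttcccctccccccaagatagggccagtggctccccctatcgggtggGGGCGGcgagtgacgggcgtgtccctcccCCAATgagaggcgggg

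No gene of either family passed the threshold of an adjusted p under 0.05, where limma called 0% of all genes. At an unadjusted p under 0.05 there were 3 of the 25 genes, all with a higher mean in the HuR samples, against 5.85% of all genes, of which 2.98% were higher and 2.87% lower. These 3 were Hnrnpa2b1, Hnrnpu and Srsf10. Groups overlapped in every one of the 25 genes (0 separated, against 0.299% of all genes). The HuR mean was the higher one in 20 of the 25 genes, against 47.8% of all genes and 54.0% of genes above the median row, and after a new quantile normalization of the arrays the number was 16. The median difference of the family members was 0.13, against -0.003 over all genes and 0.009 over genes above the median row. It was 0.048 after the new quantile normalization and 0.077 without HuR replicate 2.

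Hnrnpa2b1 encodes hnRNP A2/B1, which binds exons and introns in the nucleus and also accompanies messages into the cytoplasm. In the controls it ran from 10.70 to 11.29 with a median of 11.18, and in the HuR samples from 11.24 to 11.84 with a median of 11.53. Only HuR replicate 4 lay inside the control range, and the other 5 HuR samples lay above every control. For HuR replicate 1 this was nearly a tie, at 11.296 against 11.288 for the highest control, replicate 5. Its mean was 11.11 ± 0.21 (SD, n = 6) against 11.53 ± 0.24 (SD, n = 6), 1.34-fold higher, with a 95% interval from 1.11-fold to 1.61-fold. The permutation p (exact, two-sided) was 0.00433, and limma gave an adjusted p of 0.824. Without control replicate 2, the lowest array at 10.70, the difference of 0.42 (SE 0.123) became 0.34, and without both replicates numbered 2 it was 0.28.

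**Figure D1:**
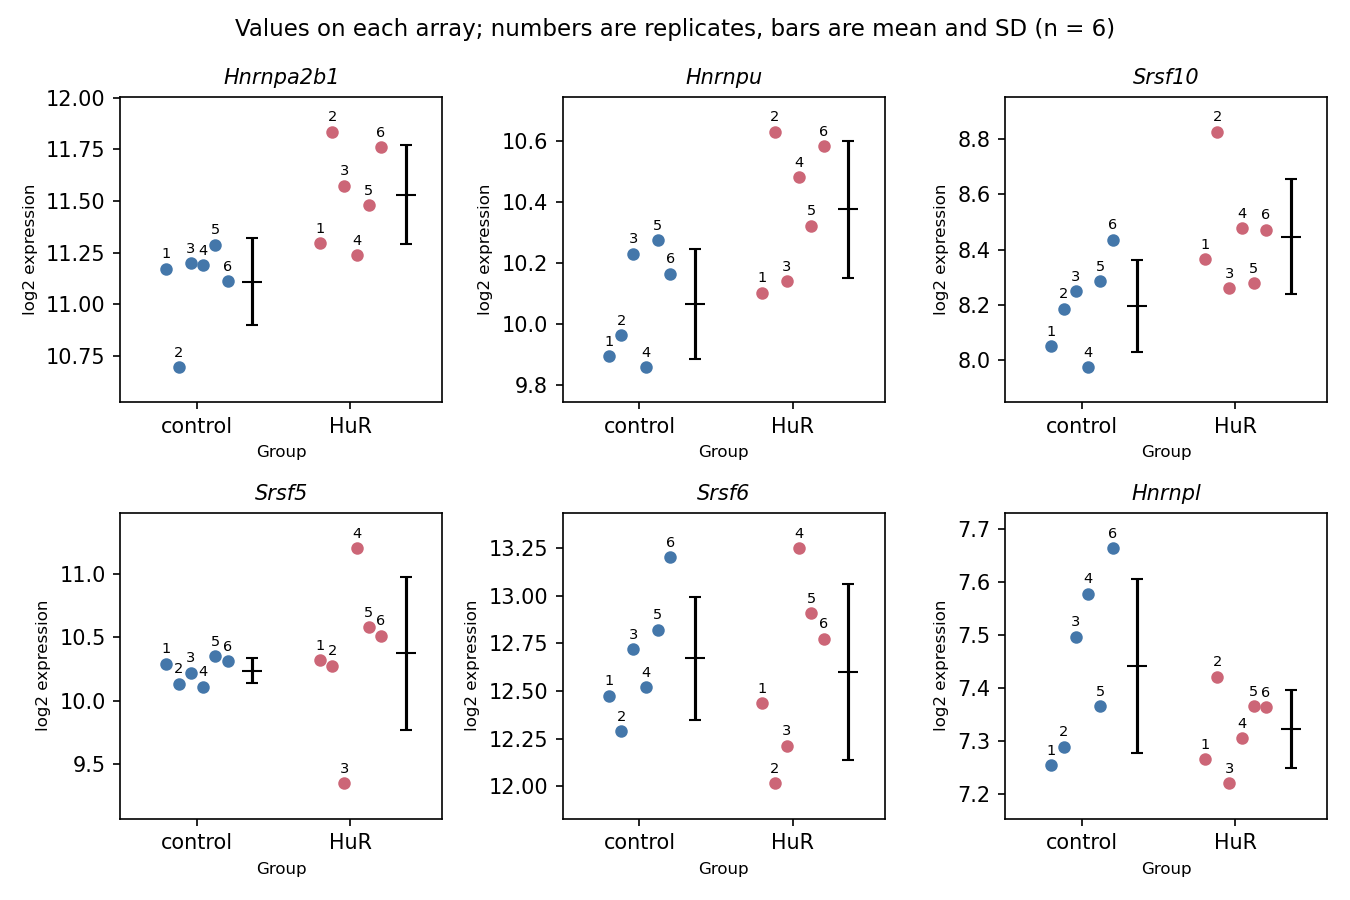
Log2 expression of 6 splicing factor genes on every array, with the control arrays in blue, the HuR arrays in red, the replicate number above each point, and mean and SD (n = 6) as black bars. Hnrnpa2b1 lies above all controls in 5 of 6 HuR arrays, in replicate 1 only narrowly. Srsf5 spreads from 9.34 to 11.21 in the HuR arrays and only from 10.11 to 10.35 in the controls.

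The other genes of the A/B group bind RNA through paired recognition motifs of the same kind. Hnrnpab ran from 11.25 to 11.72 in the controls and from 11.28 to 12.05 in the HuR samples, with 4 of 6 HuR samples above every control. Its difference was 0.23 (SE 0.125), with a limma adjusted p of 0.866. Hnrnpa3, subject to the doubt about its row, ran from 13.37 to 13.99 with a median of 13.60 in the controls and from 13.57 to 14.18 with a median of 13.83 in the HuR samples. Only HuR replicate 6 lay above every control, and the difference was 0.25 (SE 0.123), with a limma adjusted p of 0.858. The groups overlapped widely in Hnrnpa0, a protein that binds AU-rich elements, which ran from 7.55 to 8.21 in the controls and from 7.13 to 8.31 in the HuR samples. Its difference of -0.03 (SE 0.185) turned to 0.12 without HuR replicate 6, which had the lowest level of the 12 arrays, to 0.024 without control replicate 3 and to 0.033 without control replicate 6.

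The H/F group recognises runs of guanine. In all 4 of its genes the HuR mean was higher, with differences from 0.03 for Hnrnph3 to 0.24 for Hnrnph1, and 0 of the 4 reached an unadjusted p under 0.05 with limma. Hnrnph1 ran from 10.42 to 10.95 with a median of 10.86 in the controls, and from 10.74 to 11.49 with a median of 10.98 in the HuR samples. Its difference of 0.24 (SE 0.126) was 0.15 without HuR replicate 2, the highest array. Hnrnpf differed by 0.13 (SE 0.075), or 0.077 without HuR replicate 2, and Hnrnph2 by 0.06 (SE 0.096). Single arrays moved Hnrnph2 to 0.0027 without control replicate 2, to 0.0052 without HuR replicate 5, to 0.097 without HuR replicate 4 and to 0.12 without control replicate 6. The narrowest interval of the group was that of Hnrnph3, with 95% limits of 0.956-fold and 1.09-fold. After the new quantile normalization its difference was -0.014.

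Among the remaining hnRNP genes, Hnrnpu had the highest difference. It encodes a large nuclear protein that binds both RNA and scaffold attachment regions of DNA. Its level ran from 9.86 to 10.27 with a median of 10.06 in the controls, and from 10.10 to 10.63 with a median of 10.40 in the HuR samples. HuR replicates 2, 4, 5 and 6 lay above every control, and HuR replicates 1 and 3 lay inside the control range. The difference was 0.31 (SE 0.111), or 1.24-fold with a 95% interval from 1.05-fold to 1.47-fold. The permutation p (exact, two-sided) was 0.0303, and limma gave an adjusted p of 0.824.

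Hnrnpm differed by 0.18 (SE 0.127), Hnrnpk, a protein that binds cytosine-rich stretches, by 0.10 (SE 0.084), and Hnrnpc, which binds uridine tracts, by 0.09 (SE 0.116). HuR replicate 2 was the highest of the 12 arrays in each of these 3 genes, and without it they differed by 0.088, 0.043 and 0.0088. Without control replicate 4, the lowest array in each, they differed by 0.12, 0.048 and 0.025. The relatives of Hnrnpu, Hnrnpul1 and Hnrnpul2, differed by 0.07 (SE 0.070) and 0.07 (SE 0.094), and by -0.0013 and -0.0054 after the new quantile normalization. With single arrays left out, Hnrnpul1 ran from 0.028 without control replicate 4 to 0.097 without HuR replicate 3, and Hnrnpul2 from 0.021 without control replicate 1 to 0.14 without control replicate 6. Hnrnpl, which binds CA repeats, was the hnRNP gene with the lowest difference, at -0.12 (SE 0.072). It ran from 7.25 to 7.67 with a median of 7.43 in the controls, and from 7.22 to 7.42 with a median of 7.34 in the HuR samples. All 6 HuR samples lay below the control median, but only HuR replicate 3 lay below every control. The permutation p (exact, two-sided) was 0.143, limma gave an adjusted p of 0.871, and without control replicate 6 the difference was -0.074.

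**Figure D2:**
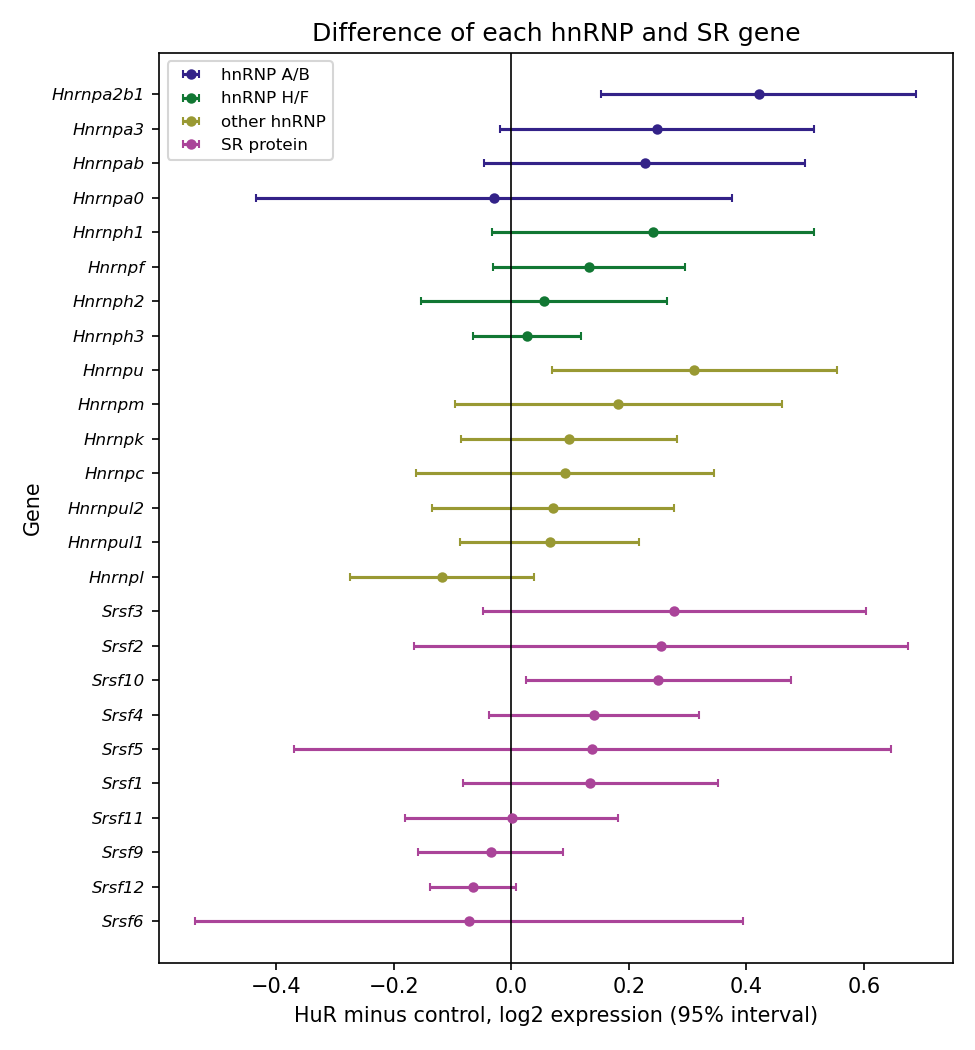
HuR minus control difference in log2 expression for each of the 25 genes, grouped and coloured by family, with the 95% interval from limma. The intervals of Hnrnpa2b1, Hnrnpu and Srsf10 lie above 0 before adjustment, and the differences run from -0.12 for Hnrnpl to 0.42 for Hnrnpa2b1.

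Of the 10 SR genes, 7 were higher on average in the HuR samples and 3 lower, with a median difference of 0.14. Srsf10, which acts as a general repressor of splicing when it loses its phosphates, ran from 7.97 to 8.44 with a median of 8.22 in the controls. In the HuR samples it ran from 8.26 to 8.83 with a median of 8.42. The HuR replicates 2, 4 and 6 lay above every control, and no HuR sample lay below the control median. The difference was 0.25 (SE 0.103), and 0.17 without HuR replicate 2. Its permutation p (exact, two-sided) was 0.0325, and limma gave an adjusted p of 0.836.

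Srsf3, the smallest of the classical SR proteins, ran from 7.73 to 8.63 in the controls and from 8.34 to 8.99 in the HuR samples. Control replicate 4 was the low value, and without it the difference of 0.28 (SE 0.149) became 0.17. Srsf2, known as a mark of nuclear speckles, also had its low value in control replicate 4, at 9.56, and its highest in HuR replicate 4, at 10.96. Its difference of 0.26 (SE 0.192) was 0.13 without the former and 0.16 without the latter. Srsf1, which binds purine-rich exon enhancers, differed by 0.13 (SE 0.099), and by 0.057 without HuR replicate 2. Srsf4 differed by 0.14 (SE 0.082), and by 0.093 without HuR replicate 4. Srsf9, a short relative of Srsf1, ran from 6.33 to 6.70 with a median of 6.47 in the controls and from 6.37 to 6.48 with a median of 6.46 in the HuR samples, all inside the control range. It differed by -0.04 (SE 0.056), and by 0.0066 without control replicate 3.

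For Srsf11 the groups had nearly the same mean, at 8.11 ± 0.16 (SD, n = 6) and 8.11 ± 0.14 (SD, n = 6). The 95% interval of its difference ran from -0.18 to 0.18, so a change of more than 1.13-fold in either direction lies outside it. Srsf12, near the background level, ran from 3.77 to 3.86 with a median of 3.82 in the controls and from 3.68 to 3.83 with a median of 3.76 in the HuR samples, 4 of them below every control. It differed by -0.07 (SE 0.033). The permutation p (exact, two-sided) was 0.0303, and limma gave an adjusted p of 0.859.

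Srsf5 and Srsf6 encode SR proteins of the same branch as Srsf4. Srsf5 was tight in the controls, from 10.11 to 10.35 with a median of 10.26, but in the HuR samples it ran from 9.34 in replicate 3 to 11.21 in replicate 4, with a median of 10.42. That is a 3.64-fold range among HuR samples, against 1.18-fold among controls, and the SD was 0.61 against 0.10. The difference of the means was 0.14 (SE 0.233), and it became -0.029 without HuR replicate 4 and 0.34 without HuR replicate 3. Srsf6 was more even between the groups, from 12.29 to 13.20 with a median of 12.62 in the controls and from 12.02 to 13.25 with a median of 12.60 in the HuR samples. Its difference was -0.07 (SE 0.213), and it turned to 0.034 without control replicate 6, to 0.045 without HuR replicate 2 and to 0.0053 without HuR replicate 3. Whether the spread of Srsf5 differs between the groups was not tested.

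Across arrays, many of the genes shared their extremes. HuR replicate 2 was the highest of the 12 arrays in 12 of the 25 genes, against 16.1% of all genes and 25.6% of genes above the median row. Control replicate 4 was the lowest in 14 of the 25, against 9.26% of all genes and 13.8% of genes above the median row. In 10 genes both held, against 3.64% of all genes. These were Hnrnpc, Hnrnpf, Hnrnph1, Hnrnpk, Hnrnpm, Hnrnpu, Hnrnpul1, Srsf1, Srsf3 and Srsf10. The extremes were not confined to the 25 genes, and the other splicing lists described below shared them to differing degrees. Control replicate 4 was lowest in 22 of 63 spliceosome core genes, 8 of 20 SR-related genes and 12 of 44 other regulators. It was lowest in 4 of 9 decay genes and 2 of 9 SR kinases. In the same order of lists, HuR replicate 2 was highest in 20, 3, 10, 1 and 0 genes. HuR replicate 4 had another pattern and was highest in Srsf2, Srsf4, Srsf5, Srsf6 and Hnrnph3. It was the highest array in 7.02% of all genes and 8.52% of genes above the median row. The median of the 25 genes, each taken relative to its control mean, was 0.37 on HuR replicate 2, from -0.03 to 0.14 on the other HuR arrays, and from -0.16 to 0.13 on the control arrays.

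**Figure D3:**
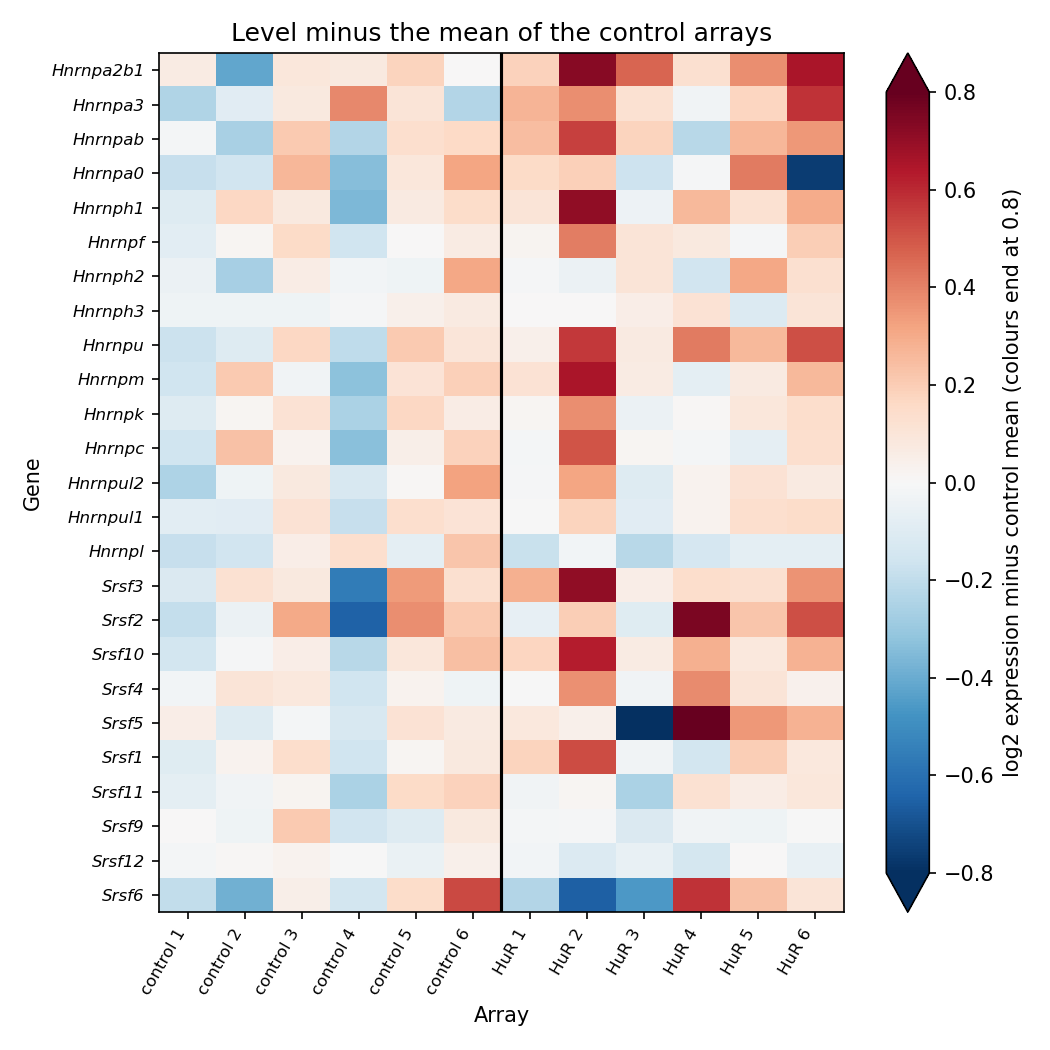
Level of each gene on each array minus the mean of the 6 control arrays, in log2 units, with control arrays left and HuR arrays right of the black line and colours that end at 0.8. HuR replicate 2 is the highest array in 12 of 25 genes and control replicate 4 the lowest in 14, while HuR replicates 3 and 4 take opposite ends for Srsf5.

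Markers of several other cell types had different mean levels in the groups or were highest on HuR replicate 2, but no marker gene passed the limma threshold. Their part in the splicing factor values was not tested. Fits were made with the adipocyte, islet and B and plasma cell means, and not with the macrophage or T and NK cell means. The means used differed between the groups themselves, so these fits cannot tell cell content and genotype apart. Adipocyte genes were higher in HuR samples in 12 of 12 measured cases, and their mean level ran from 6.25 to 8.20 in controls and from 6.81 to 9.43 in HuR samples. Macrophage genes were higher in 15 of 16, with mean levels from 6.70 to 8.24 and from 7.22 to 9.34. For T and NK cells 11 of 12 genes were higher, with mean levels from 4.44 to 4.61 and from 4.55 to 4.91, near the median of all rows. For B and plasma cells 7 of 11 were higher, from 5.80 to 7.48 and from 5.99 to 7.40. Islet genes were lower in 15 of 15, from 9.19 to 11.77 in controls and from 9.21 to 10.28 in HuR samples. With limma, 3 adipocyte, 5 macrophage and 6 T and NK cell genes had an unadjusted p under 0.05, all higher. So did 1 B and plasma cell gene, also higher, and 0 islet genes. The share over all genes was 5.85%. The highest adipocyte, macrophage, T and NK cell, duct, endothelial and stellate cell mean of all 12 arrays was that of HuR replicate 2. The lowest islet mean was that of control replicate 4.

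The median difference of the splicing factor genes was 0.056 in a fit with the adipocyte mean as a term, 0.082 with the B and plasma cell mean and 0.18 with the islet mean. The adipocyte term left Hnrnpa2b1 at 0.42 and Srsf5 at 0.23, and took Hnrnph1 to 0.085, Srsf1 to -0.014, Hnrnpm to -0.0045 and Srsf6 to 0.25. Duct genes were higher in 5 of 9 cases, endothelial genes in 6 of 8, stellate cell and fibroblast genes in 7 of 12 and immediate early genes in 5 of 11. Acinar genes were higher in 0 of 11, where 5 were lower and 6 equal. The 6 equal ones had the top value of the scale on every array, so they could not differ. Without HuR replicate 2 the stellate cell and fibroblast list had 2 of 12 genes higher and its median went from 0.03 to -0.13. The duct list then had 3 of 9 higher, the endothelial list 4 of 8 and the B and plasma cell list 5 of 11. In the acinar list 2 genes were then higher and 3 lower. Xist, transcribed from the inactive X chromosome, was high on 2 control and 3 HuR arrays and low on 4 and 3, and the labels give no sex. The median difference of the 25 genes was 0.23 among the 5 arrays with high Xist, and 0.046 among the 7 with low Xist. The high Xist arrays include both control replicate 4 and HuR replicate 2, and only 1 other control, so this split cannot be told apart from those 2 arrays. For Hnrnpa2b1 the same values were 0.22 and 0.56, for Hnrnpu 0.34 and 0.28, and for Srsf10 0.43 and 0.11.

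The other splicing lists had lower medians than these families, a contrast that was not tested, while single genes reached values as high, such as Mbnl1 at 0.42 (SE 0.254) and Prpf39 at 0.30 (SE 0.158). These 2 were chosen after their values were seen, and neither reached an unadjusted p under 0.05 with limma. Of 63 measured genes of the spliceosome core, such as small nuclear ribonucleoprotein and SF3 subunits, 45 were higher on average in the HuR samples, with a median difference of 0.04, and without HuR replicate 2 there were 35, with a median of 0.005. In this list 2 of the 63 genes reached an unadjusted p under 0.05, both higher, against 5.85% of all genes. Prpf31, a tri-snRNP assembly factor, had the smallest p of those higher, with a difference of 0.12 (SE 0.044) and a limma adjusted p of 0.824. Sf3a1, a subunit of the U2 particle, had the smallest p of those lower, at -0.08 (SE 0.052).

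SR-related proteins were higher in 16 of 20 measured genes, with a median of 0.05. Against 5.85% of all genes, 1 of the 20 reached an unadjusted p under 0.05. This was Luc7l3, a U1-associated protein, which ran from 9.03 to 9.29 in the controls and from 9.26 to 9.62 in the HuR samples, with 4 HuR samples above every control and a difference of 0.22 (SE 0.074). Srrm3 had the smallest p of those lower, at -0.05 (SE 0.042). The kinases that phosphorylate SR proteins were higher in 4 and lower in 5 of 9 genes, with 0 at an unadjusted p under 0.05 by limma, and ranged from -0.10 for Srpk2 to 0.16. Prpf4b had the smallest p of those higher, at 0.11 (SE 0.118).

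Other regulators of splicing were divided, with 23 of 44 measured genes higher and 21 lower, and a median of 0.01. Of these, 1 was higher and 4 were lower at an unadjusted p under 0.05, against 2.98% and 2.87% of all genes. The higher one was Rbm25, a regulator that binds exonic sequences, with a difference of 0.24 (SE 0.098). The lower ones were Celf3, Celf4, Nova2 and Pcbp3. Their control means were 5.08, 4.85, 4.30 and 5.42 in that order. The median of all rows was 4.52 and that of the background rows 3.74, so low levels limit these values. Celf3 ran from 4.91 to 5.36 in the controls and from 4.79 to 4.95 in the HuR samples. All 6 HuR samples lay below its control median, and the difference was -0.19 (SE 0.069). Of the 9 measured genes of nonsense-mediated decay, the pathway that removes SR messages carrying a poison exon, 8 were higher, with a median of 0.02, from Smg8 at -0.06 (SE 0.099) to the largest value of 0.20, and Rbm8a had the smallest p at 0.08 (SE 0.042). None of the genes of these 5 lists passed the limma threshold over all genes.

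**Figure D4:**
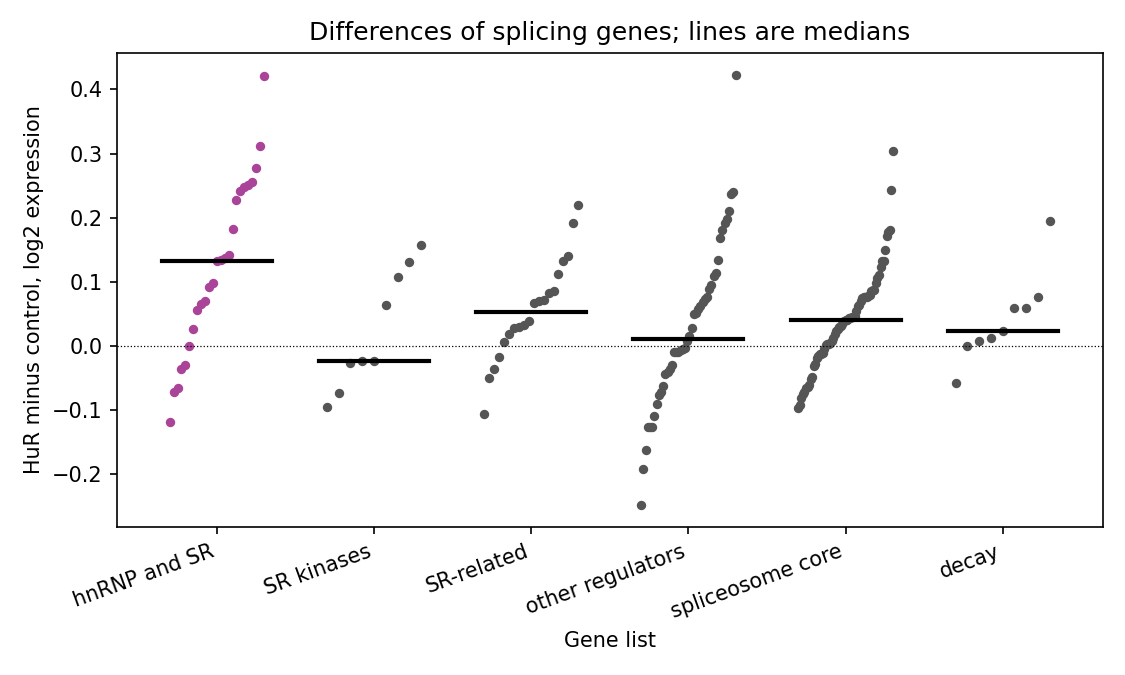
HuR minus control difference in log2 expression of each gene of the hnRNP and SR families and of 5 other splicing lists, 1 point per gene, with the median of each list as a black line. The median is 0.13 for the hnRNP and SR genes and lies between -0.02 and 0.05 in the other lists.

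The promoters of the family were rich in G and C. A sequence was found for 24 of the 25 genes, Hnrnpul2 being the other one, and the first listed start was used for each. The 250 bases upstream had a median G and C content of 64.4%, from 48.4% to 81.2%, against 52.0% over 27025 promoters, and 22 of the 24 lay above that median. Searched on both strands, the motif GGGCGG was found in 18 of 24 (75.0%, against 32.9% of all promoters), CCAAT in 13 (54.2%, against 34.5%) and TGACGT in 7 (29.2%, against 6.6%). The 7 with TGACGT were Hnrnpa2b1, Hnrnpa3, Hnrnph1, Hnrnpm, Srsf3, Srsf6 and Srsf11. Of the genes whose upstream sequence is printed, Hnrnpa2b1 holds 1 CCAAT and 1 TGACGT match, whereas Hnrnpu holds GGGCGG and TTTCCGG matches and Hnrnpl holds 4 CCAAT matches and 1 of GGGCGG. In Srsf10 there were 3 matches of GGGCGG and 1 of CCAAT.

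Other motifs were found in few of the 24. TATAAA was in 3 (12.5%, against 13.0% of all promoters), CCGGAAG in 4 (16.7%, against 7.1%), and the overlapping CGGAAGT in 3 (12.5%, against 5.0%). TTTCCGG was in 3 (12.5%, against 2.9%), CTCGCGA in 2 (8.3%, against 1.7%), CACGTG in 1 (4.2%, against 6.0%) and AAGATGG in 1 (4.2%, against 4.5%). Motifs rich in G and C are more frequent in sequence of that composition, and a match is a description of the letters.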

How the data were processed

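Total RNA of 12 pancreas samples was labelled and hybridised to 1 Affymetrix array each. The authors deposited log2 expression levels made by RMA, a method that normalizes arrays to each other, so a shift shared by most genes would not be seen. Of software, the submitters' processing notes list Transcriptome Analysis Console 3.1 and Affymetrix Expression Console 1.4, and further settings were not given there. Array medians ran from 4.42 to 4.60.

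Of 72688 rows, 6732 control rows were left out, and 30604 of the remaining 65956 had 1 gene symbol. Symbols were updated through a RefSeq table of GRCm38.p6 (22818 rows matched, 827 updated), and the row with the highest mean was kept for each of 30142 genes. Groups came from the titles in the labels. The difference was fitted over all genes with limma 3.58.1 (lmFit, eBayes) in R 4.3.3, with data.table (version 1.17.8) for reading, two-sided, with Benjamini-Hochberg adjustment over all genes and a threshold of 0.05. The code was tested on simulated data. Exact permutation tests used all 924 assignments, and the smallest p they can give is 0.00216.

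A further hnRNP gene is not reported here. Members, lists and motifs were chosen with earlier results of these data known. Named in full were the genes with the smallest p in each direction, the ends of each family group, and the smallest p in each direction of each splicing list. The lists covered SR kinases, SR-related proteins, other regulators, the spliceosome core, nonsense-mediated decay, immediate early genes and 9 sets of cell type markers. The cell type markers are those of acinar, islet, duct, macrophage, B and plasma, T and NK, adipocyte, stellate and endothelial cells.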

Additional observations from a re-analysis of the deposited data

Results flagged for a closer look

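Each of the 25 genes was looked at for a sample far from the other 5 of its group, in 50 groups of 6, of which chance marks about 1 in 20. There were 3 such groups. Control replicate 2 stood at 10.70 for Hnrnpa2b1, with the next control at 11.11. HuR replicate 2 stood at 9.86 for Hnrnpc, with the next HuR sample at 9.48. HuR replicate 3 stood at 6.37 for Srsf9, with the next HuR sample at 6.45.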

How the results depend on the processing

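No gene of the 25 passed the limma threshold in any alternative, at an adjusted p under 0.1 included. The count at an unadjusted p under 0.05, 3 as reported, was 5 after a new quantile normalization, 1 with array weights, 1 without control replicate 2 and HuR replicate 2, 7 with the islet mean and 1 with the adipocyte mean as a covariate, and 2 to 5 with single arrays left out. The same counts over all genes were 6.85%, 7.52%, 7.07%, 9.88% and 6.68% in these 5 settings, and 4.66% to 7.75% with single arrays left out. With single arrays left out, 0 to 1 gene separated the groups (Hnrnpa2b1 without control replicate 5 or HuR replicate 4). Groups separate more easily with fewer arrays, and the share of all genes that separated in those settings is not given here. In the same settings 18 to 22 of the 25 genes were higher, against 45% to 50.8% of all genes, and the median ran from 0.077 to 0.14. Without both replicates numbered 2 the median was 0.062, and with array weights 0.068.

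Some differences changed sign. After the new quantile normalization Hnrnph3 was at -0.014, Hnrnpul1 at -0.0013, Hnrnpul2 at -0.0054 and Srsf11 at -0.047. Srsf11 was at -0.034 with array weights, -0.0078 without both replicates numbered 2 and -0.0046 with the B and plasma cell mean. That covariate also put Hnrnpa0 at 0.011, Hnrnpc at -0.0057 and Srsf6 at 0.054, and the adipocyte mean put Hnrnpc at -0.070, Hnrnpm at -0.0045, Srsf1 at -0.014 and Srsf6 at 0.25. With single arrays left out, Srsf11 ran from -0.050 to 0.052, Hnrnpa0 from -0.12 to 0.12, Srsf6 from -0.20 to 0.045, Srsf9 from -0.066 to 0.0066 and Srsf5 from -0.029 to 0.34. The cause was not tested.

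Samples of the 2 groups share replicate numbers, and the correlations of same-numbered arrays' deviations ran from -0.108 to 0.654, above 0.1 in 4 of 6 pairs. The highest was that of the arrays numbered 2, and the next was 0.214 for those numbered 5. Not every pair passed 0.1, so the samples were treated as unpaired, and a shared source of some pairs was not tested. With the replicate number as a block, 4 genes had an unadjusted p under 0.05, 0 passed the limma threshold and 20 were higher, while 8.28% of all genes reached an unadjusted p under 0.05. Of the 6 controls, 3 correlated best with the HuR array of their own number. Xist as a covariate and variances moderated over all rows were chosen after seeing the data. With the Xist covariate 3 genes had an unadjusted p under 0.05, against 5.53% of all genes, and the median was 0.098. Levels near background, as for Srsf12, and the number of arrays limit these values.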
